A study of Capra hircus with 24 samples.

Results

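The genes described here take up, activate, make and desaturate the fatty acids of milk fat. They are 10 genes listed by their cattle RefSeq transcript ids, which are LPL (NM_001075120), VLDLR (NM_174489), SLC27A6 (NM_001101169), ACSL1 (NM_001076085), ACSS2 (NM_001105339), ACLY (NM_001037457), ACACA (NM_174224), FASN (NM_001012669), SCD (NM_173959) and IDH1 (NM_181012). Every probe that the array files assign to one of these ids was taken, which gave 37 of 43653 probes, or 10 of 26748 accessions. Of the 37 probes, 31 from 9 genes passed the filter on dim signal. The genes were listed for their known role, but earlier results of these data were known when they were chosen.

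The 8 goats were healthy and in 3rd lactation. Of these, 4 were Polish White Improved (PWI) and 4 were Polish Fawn Improved (PFI), and all were sampled for RNA of 3 kinds. Milk somatic cells (MSC) are the cells shed or drawn into milk. Milk fat globules (MFG) are lipid droplets that carry trapped cytoplasm of the secreting cell. Peripheral nuclear cells of blood (PNCB) are the nucleated cells left after red cells are lysed. Each goat and source was hybridised to 1 two-colour array with the sample in Cy5 and a common reference in Cy3, giving 24 arrays in 6 groups of 4. The reference pooled RNA of blood nuclear cells from 7 goats (4 PWI, 3 PFI) in 4th lactation. A log2 ratio near 0 therefore means a level like that of the pooled blood cells, relative to the other probes of the array. For a dim probe it can also mean that both channels lay near background. The submitters note, beside the reference, that sampling followed the end of lactation, and whether this also covers the experimental goats is not clear from the text. Milk RNA was extracted with the RNeasy Lipid Tissue Mini Kit and blood RNA with the Total RNA mini Kit, so in comparisons with PNCB the kit cannot be told apart from the source. The array was designed for cattle, so probes of a gene can differ in how well they bind goat RNA.

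The fatty acids of milk fat come from blood lipids and from synthesis within the gland. Long-chain fatty acids are freed from circulating lipoproteins at the capillary wall, cross the cell membrane and are joined to coenzyme A. Shorter fatty acids are made in the secretory cell itself, in ruminants mainly from acetate and not from glucose, by carboxylation of acetyl-CoA, chain building on fatty acid synthase and reducing power from NADPH. Part of the saturated product is then desaturated before it enters triglycerides. In these bulk samples, fewer cells of a type and less RNA per cell cannot be told apart.

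Some arrays stood apart. The spike-in slope, which is the slope of the measured on the known log ratio of control RNAs, was 0.489 for MFG of PWI goat 2, 0.645 for PNCB of PWI goat 3 and 0.567 for PNCB of PWI goat 4, and 0.758 to 0.887 on the other 21 arrays. On MFG of PWI goats 2 and 4, 84.6% and 75.3% of probes were well above background in Cy5, against 44.1% to 65.6% on the other 22 arrays. All MFG arrays were scanned on another day than the rest, so a scan day effect and an MFG effect cannot be told apart. No slide was shared between sources, so a slide effect and a source effect cannot be told apart either. Of 888 member values, 32 came from spots with an outlier flag and were left out. Values that leave out the 3 arrays with slopes under 0.758 (the low-slope arrays) are given beside the results they touch.

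The scanner signals already separated the genes, before any normalization. The LPL probe had a median of 46.5 scanner units in PNCB, near the local background of 38.5, and of 11323 in MSC and 11235 in MFG. FASN went from 1864 units in PNCB to 31827 in MSC and 39487 in MFG, and SCD from 2438 to 26437 and 29405. ACLY ran the other way, from 3845 units in PNCB to 928 in MSC and 171 in MFG. All SLC27A6 probes stayed near background in most samples.

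**Figure D1:**
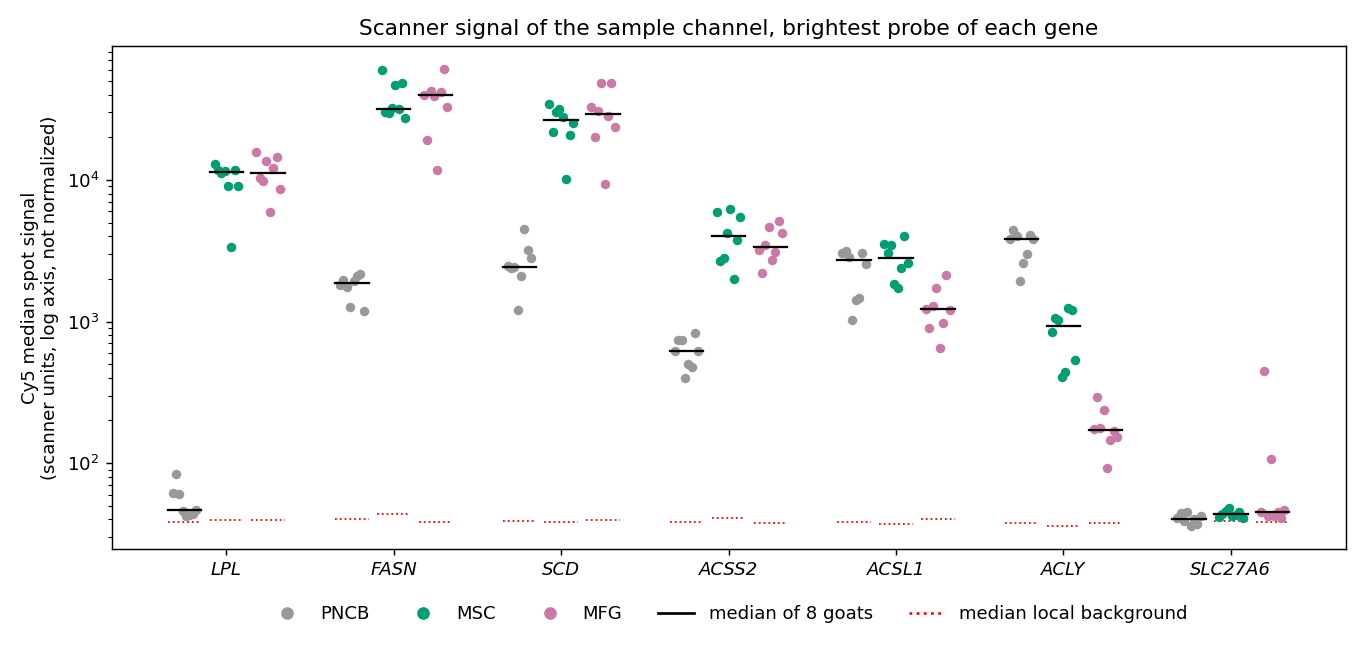
Cy5 median spot signal in scanner units on a log axis, not normalized and with flagged spots included, for the brightest probe of 7 genes. Points are the 8 goats of each source, black lines their median and dotted lines the median local background. LPL sits near background in PNCB and at 3381 or above in all milk samples, ACLY falls from PNCB to MSC to MFG, and the SLC27A6 probe lies near background except in 2 MFG arrays.

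Values below are log2 ratios to the reference after background correction and loess normalization within each array. Each gene is described by its brightest tested probe. Source differences come from 1 limma fit over all probes and 24 arrays, with Benjamini-Hochberg adjusted p-values and a threshold of 0.05. The source comparisons share samples, so they are not independent of each other. The RNA samples come from separate goats, and each goat is in all 3 sources.

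Uptake genes were higher in both milk sources than in blood. LPL encodes lipoprotein lipase, the enzyme that frees fatty acids from circulating triglycerides. Its log2 ratios ranged from -0.26 to 0.20 in PNCB (median -0.08), from 4.44 to 5.97 in MSC (median 5.56) and from 6.12 to 7.53 in MFG (median 7.09). No sample of one source overlapped another. PFI goat 2 was the lowest MSC sample, where the next had 5.30, and PWI goat 2 was the lowest MFG sample, where the next had 6.78. The log2 difference was 5.50 for MSC against PNCB (SE 0.18, limma adjusted p = 2.08e-16), which is 45.2-fold. For MFG against PNCB it was 7.08 (SE 0.18, limma adjusted p = 9.08e-19), which is 135-fold. In PNCB this probe was well above background on 3 of 8 arrays in Cy5 and on 0 of 8 in Cy3, so the PNCB side is close to its lower limit. The other LPL probes were well above background on no PNCB array. Probe A_73_P306096 was called higher by 4.00 in MSC and 5.71 in MFG, and A_73_P102541 by 1.34 (limma adjusted p = 0.00046) and 2.01 (limma adjusted p = 1.38e-06). No fold is given for these probes, since their PNCB signal was not well above background. The size of the LPL difference depended on the processing and on the probe. With median centring it was 7.07 in MSC and 7.29 in MFG. It was 7.99 in MSC and 9.87 in MFG with the scanner software's processed signals, and 3.73 and 4.93 as the mean of the 3 probes. It was called with all 25 alternatives in both comparisons, and was 5.50 and 7.23 without the 3 low-slope arrays.

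VLDLR encodes a receptor that binds triglyceride-rich lipoproteins. It had 1 tested probe of 3, and the other 2 were well above background on no PNCB array and passed in no group. Its log2 ratio ranged from -0.12 to 1.32 in PNCB (median -0.03), from 1.50 to 2.96 in MSC (median 2.0) and from 0.53 to 2.77 in MFG (median 1.95, n = 7). MSC and PNCB did not overlap, while MFG and PNCB did, through MFG of PWI goat 2 at 0.53 and PNCB of PWI goat 3 at 1.32, both arrays of low spike-in slope. The difference was 1.89 for MSC (SE 0.26, limma adjusted p = 3.17e-06) and 1.81 for MFG (SE 0.27, limma adjusted p = 5.21e-06), or 3.70-fold and 3.50-fold. Without the 3 low-slope arrays it was 2.04 and 2.16. The probe was called higher with all 25 alternatives, from 1.47 to 4.23 in MSC and from 1.02 to 3.40 in MFG. The lowest values came with all flagged spots kept and the highest with the deposited table.

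SLC27A6 encodes a fatty acid transport protein. None of its 3 probes passed the filter on dim signal, so it was not tested. Its brightest readings came from MFG of PWI goats 2 and 4, with 450 and 107 scanner units at probe A_73_P169727, where the other MFG arrays lay near 45. Those are the arrays on which the widest share of all probes was above background. Cy3 was brighter there too (217 and 103 units), and after normalization within the array their log2 ratios were 0.19 and 0.16. Probe A_73_P040636 was well above background on 1 PNCB array.

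**Figure D2:**
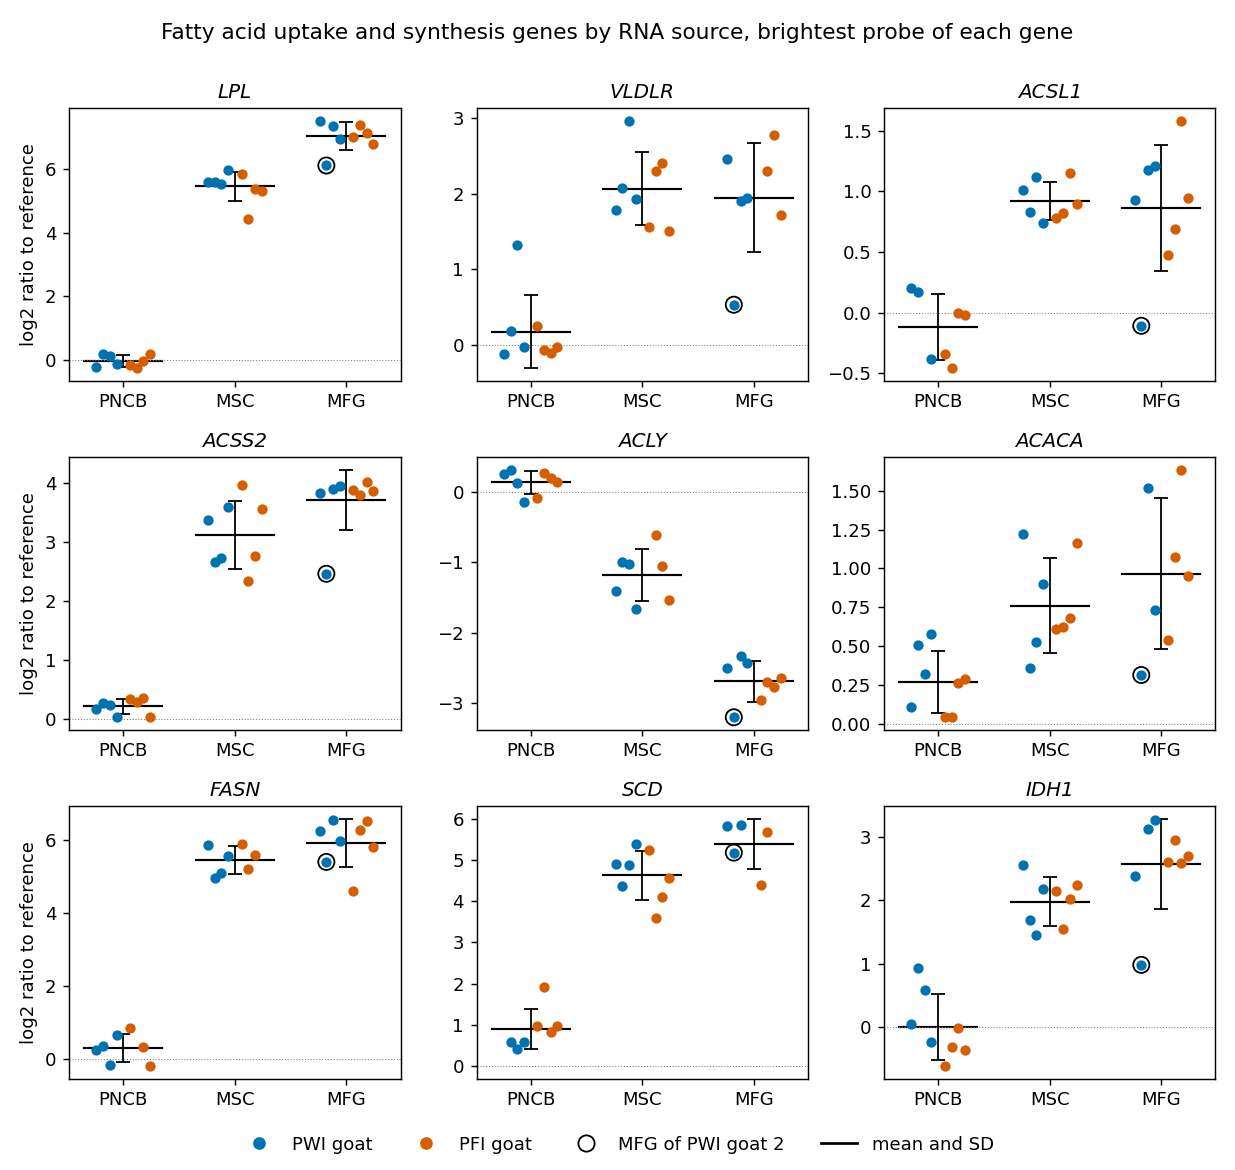
log2 ratio to the blood reference for the brightest probe of 9 genes, in 3 RNA sources. Points are goats coloured by breed, lines are the mean and bars the SD; MFG of PWI goat 2, an array of low spike-in slope, is ringed. LPL, ACSS2, FASN, SCD and IDH1 lie above PNCB in every milk sample, and ACLY lies below it.

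The activating enzymes for acetate and for long chains were higher in both milk sources than in blood at their brightest probes, although the long-chain enzyme turned sign in MFG with median centring. ACSS2 encodes cytosolic acetyl-CoA synthetase, which turns acetate into acetyl-CoA. Its ratios ranged from 0.03 to 0.35 in PNCB (median 0.25), from 2.34 to 3.97 in MSC (median 3.06) and from 2.46 to 4.00 in MFG (median 3.87). Neither milk source overlapped PNCB. Within MFG, PWI goat 2 had 2.46 and the other 7 goats 3.79 to 4.00. The difference was 2.90 for MSC (SE 0.22, limma adjusted p = 1.97e-10) and 3.49 for MFG (SE 0.22, limma adjusted p = 3.60e-12), or 7.48-fold and 11.3-fold. A dimmer second probe differed by 1.06 and 1.30, in the same direction, so the size depended on the probe. Without the 3 low-slope arrays the brightest probe differed by 2.88 and 3.65.

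ACSL1 encodes a long-chain acyl-CoA synthetase. Its ratio ranged from -0.46 to 0.20 in PNCB (median -0.02, n = 7), from 0.74 to 1.15 in MSC (median 0.86) and from -0.11 to 1.58 in MFG (median 0.94). The MSC samples lay above all PNCB samples, and MFG of PWI goat 2 lay among them. The difference was 1.02 for MSC (SE 0.18, limma adjusted p = 8.52e-05) and 0.97 for MFG (SE 0.18, limma adjusted p = 9.72e-05), or 2.03-fold and 1.96-fold. The 6 probes ranged from 0.19 to 1.11 in MSC, with 5 called, and from 0.07 to 0.97 in MFG, with 4 called. Without the 3 low-slope arrays the brightest probe differed by 0.93 and 1.03. The MFG direction depended on the scaling. With each array centred on its median in place of loess, MFG was lower than PNCB by -0.71, where the median of all tested probes stood at -0.82. The unnormalized signal was also lower in MFG, at 1216 units against 2698.5 in PNCB and 2811 in MSC.

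Among the genes of synthesis, FASN was higher in milk at all its probes, and ACLY was lower at 2 of 3. FASN encodes fatty acid synthase, which builds the chain. Its ratio ranged from -0.19 to 0.87 in PNCB (median 0.35, n = 7), from 4.95 to 5.87 in MSC (median 5.54, n = 7) and from 4.60 to 6.53 in MFG (median 6.10). The milk sources did not overlap PNCB. The difference was 5.14 for MSC (SE 0.26, limma adjusted p = 1.48e-12) and 5.60 for MFG (SE 0.25, limma adjusted p = 9.39e-14), or 35.3-fold and 48.4-fold. All 5 FASN probes were called higher in both comparisons, from 1.05 to 5.14 in MSC and from 1.62 to 5.60 in MFG. The lowest of these, A_73_P113101, was well above background on no PNCB array, so its size is not exact.

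ACLY encodes ATP citrate lyase, which makes cytosolic acetyl-CoA from citrate, the route by which glucose carbon reaches fatty acids. Its activity is known to be low in lipogenic tissues of ruminants. Its ratio ranged from -0.14 to 0.31 in PNCB (median 0.17), from -1.67 to -0.61 in MSC (median -1.06, n = 7) and from -3.20 to -2.33 in MFG (median -2.67). The 3 sources did not overlap at any goat. ACLY was 2.47-fold lower in MSC than in PNCB (log2 difference -1.30, SE 0.15, limma adjusted p = 2.42e-07) and 7.09-fold lower in MFG (by -2.83, SE 0.14, limma adjusted p = 2.47e-13). Probe A_73_P250666 gave -1.38 and -2.81. The third tested probe, A_73_P337586, did not follow them. It differed by 0.23 in MSC (limma adjusted p = 0.186) and by 0.45 in MFG (limma adjusted p = 0.0102), so the ACLY probes disagreed in sign. This probe was dim, although well above background on all 8 arrays of each source. Its mean normalized log2 Cy5 signal was 6.40 in PNCB, 6.54 in MSC and 6.85 in MFG. The brightest ACLY probe had 10.3, 9.20 and 7.84.

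ACACA encodes acetyl-CoA carboxylase, which makes malonyl-CoA and commits carbon to fatty acids. All of its signals were dim, with a brightest probe at medians of 69.25 units in PNCB, 110 in MSC and 107 in MFG over a local background of 37.75 to 39.25. Its ratio ranged from 0.04 to 0.58 in PNCB (median 0.28), from 0.36 to 1.22 in MSC (median 0.65) and from 0.32 to 1.63 in MFG (median 0.95, n = 7). The sources overlapped. The difference was 0.49 for MSC (SE 0.17, limma adjusted p = 0.0205) and 0.68 for MFG (SE 0.18, limma adjusted p = 0.00200). The MSC call was lost without PWI goat 1 (0.37, adjusted p = 0.0975) and without PFI goat 4 (0.45, adjusted p = 0.0644). Both calls were lost within PWI goats alone (0.37, adjusted p = 0.233, and 0.47, adjusted p = 0.132) and with all flagged spots kept (0.41, adjusted p = 0.110, and 0.41, adjusted p = 0.0931). They were also lost when outlier-flagged spots entered the background correction (0.41, adjusted p = 0.0876, and 0.33, adjusted p = 0.162), and the MSC call within PFI goats alone (0.61, adjusted p = 0.0563). In all, 19 of 25 alternatives kept the MSC call and 22 the MFG call. Of its 3 probes, 2 were called in each comparison. With the scanner software's processed signals, which use no offset, the difference was as large as 2.05 in MSC and 2.36 in MFG.

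IDH1 encodes the cytosolic isocitrate dehydrogenase, a source of NADPH. Its single probe ranged from -0.62 to 0.93 in PNCB (median -0.13), from 1.45 to 2.56 in MSC (median 2.08) and from 0.98 to 3.27 in MFG (median 2.65). Milk and blood did not overlap, although MFG of PWI goat 2 at 0.98 lay just above PNCB of PWI goat 2 at 0.93. The difference was 1.98 for MSC (SE 0.25, limma adjusted p = 8.32e-07) and 2.58 for MFG (SE 0.25, limma adjusted p = 7.05e-09), or 3.94-fold and 5.96-fold.

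SCD encodes stearoyl-CoA desaturase, which turns saturated into monounsaturated fatty acids. Its brightest probe ranged from 0.43 to 1.92 in PNCB (median 0.84, n = 7), from 3.59 to 5.38 in MSC (median 4.72) and from 4.39 to 5.85 in MFG (median 5.67, n = 5). Only 5 MFG values of this probe were left, as 3 of its MFG spots carried an outlier flag. Probe A_73_106141, measured on all 24 arrays, ranged from 0.61 to 1.92 in PNCB, 3.60 to 5.38 in MSC and 4.42 to 6.27 in MFG. No milk sample overlapped PNCB at either probe. The brightest probe differed by 3.77 in MSC (SE 0.25, limma adjusted p = 2.95e-10) and by 4.47 in MFG (SE 0.28, limma adjusted p = 7.65e-11), or 13.6-fold and 22.1-fold. All 7 SCD probes were called higher in both comparisons, from 1.22 to 3.77 in MSC and from 2.13 to 4.67 in MFG.

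The size of the other differences from PNCB also moved with the processing, while FASN, SCD, IDH1, ACSS2 and ACLY kept their direction and call with all 25 alternatives. FASN lay from 3.42 to 5.44 in MSC and from 4.14 to 5.93 in MFG, with the mean of its probes as the lowest in both. SCD lay from 2.65 to 4.34 and from 2.99 to 5.07, and IDH1 from 1.64 to 2.53 and from 1.45 to 3.21. ACSS2 lay from 2.10 to 3.35 and from 2.20 to 4.05. ACLY lay from -1.80 to -0.78 and from -4.82 to -1.82, with median centring at the low end and the mean of its probes at the other.

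**Figure D3:**
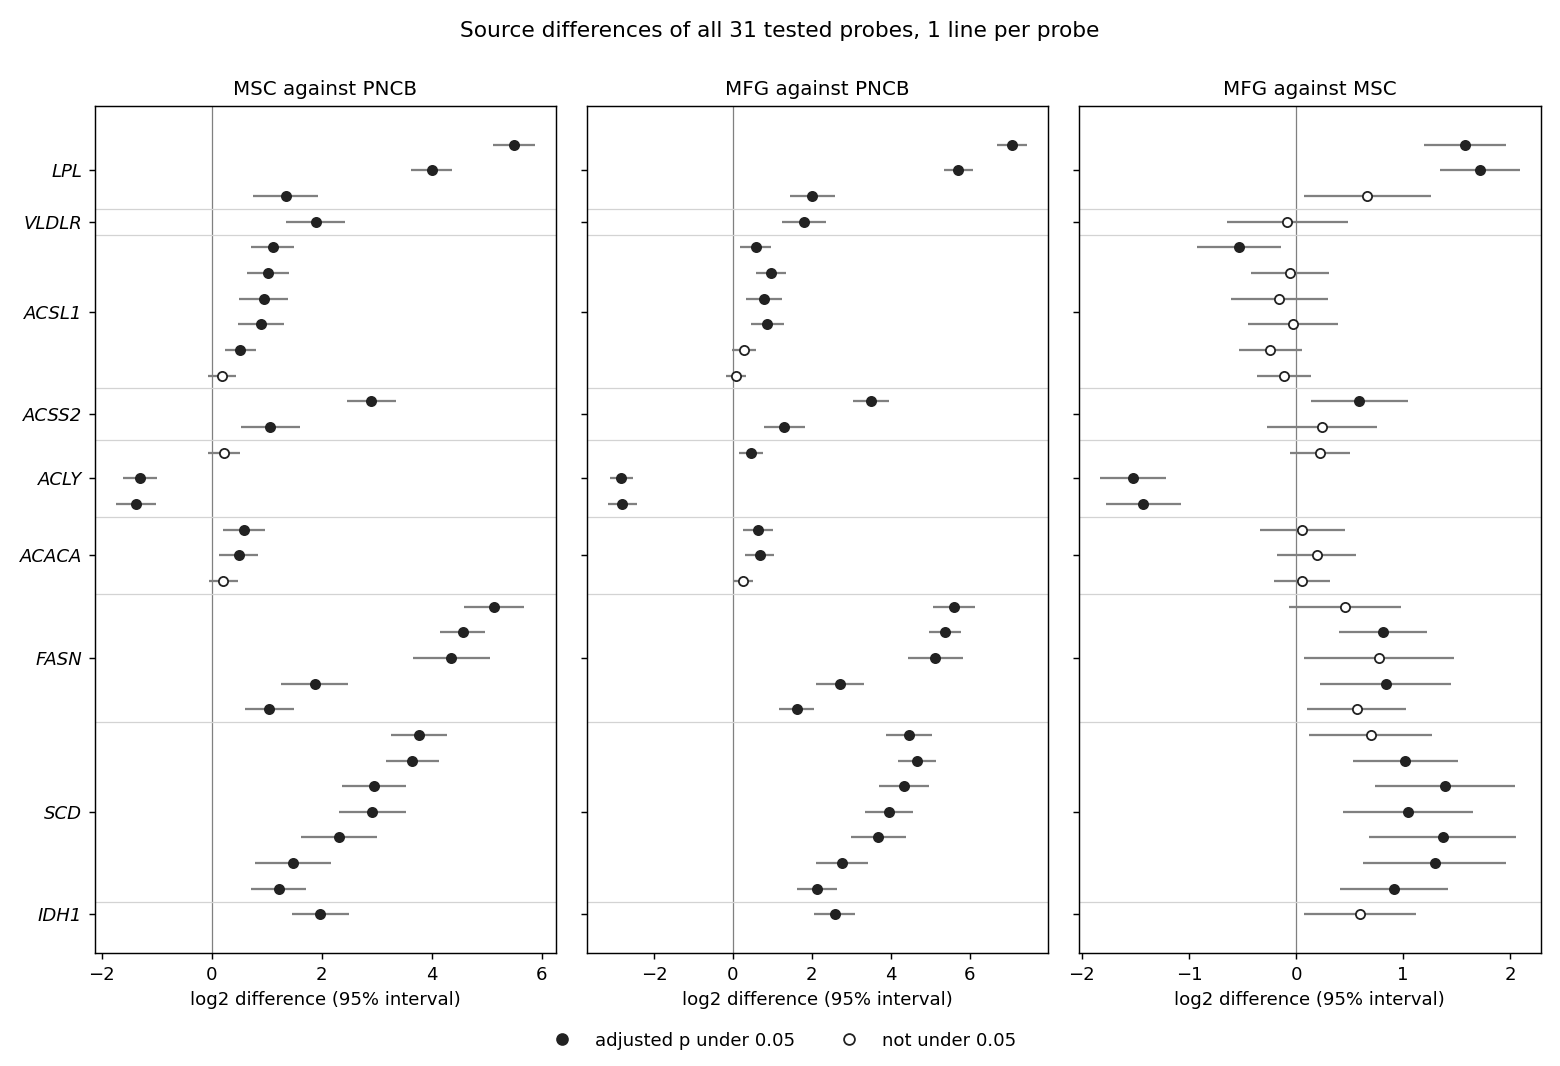
log2 difference between sources for all 31 tested probes, with 1 line per probe, grouped by gene and in the same order in the 3 panels. Bars are 95% intervals from the limma fit and filled points have an adjusted p under 0.05. All LPL, FASN, SCD, VLDLR, ACSS2 and IDH1 probes lie right of 0 against PNCB, 2 of 3 ACLY probes lie left of it, and the differences between MFG and MSC are smaller.

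Counted over the 31 tested probes, 28 were called for MSC against PNCB, 26 higher and 2 lower in MSC. Of all 27407 probes tested there, 49.6% were called, 22.5% higher and 27.1% lower in MSC. The median log2 difference was 1.34 over the member probes and -0.04 over all probes. For MFG against PNCB, 28 member probes were called, 26 higher and 2 lower. The background was 63.9% called, 25.5% higher and 38.4% lower in MFG, with medians of 2.01 over the member probes and -0.13 over all. Both lower probes were the 2 brighter ones of ACLY. At 11 probes the difference was called and at least 4-fold higher in MSC, where 1.98% of all probes were, and at 16 it was in MFG, where 2.59% were. Values of the 2 sources did not overlap at 25 of 31 probes for MSC and at 20 of 31 for MFG, against 21.5% and 28.5% of all probes. The 31 probes belong to 9 genes, so they are not independent of each other. By the brightest probe, 8 of 9 genes did not overlap for MSC and 6 of 9 for MFG. In both comparisons 8 genes were called higher and 1 lower at that probe. A probe could pass the filter on its milk signal alone, which favours a higher value in milk, and the tested members are not all members. Of the tested members, 3 were well above background on no PNCB array (2 of LPL and 1 of FASN). They are counted among the higher probes in both comparisons. The brightest LPL probe, FASN probe A_73_101920 and ACACA probe A_73_P038926 were well above background on 3 of 8 PNCB arrays. These also could pass the filter only on milk signal, and those of LPL and FASN are counted among the higher probes too. With median centring the MFG split was 24 higher and 6 lower. Leaving out the 3 arrays with a low spike-in slope gave 29 calls for MSC and 31 for MFG. Within PWI goats alone 25 and 23 member probes were called, and within PFI goats alone 25 and 29.

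Between the milk sources the differences were smaller. Of 31 member probes, 14 were called for MFG against MSC, 11 higher and 3 lower in MFG, against 34.8% of all 27383 probes, 12.6% higher and 22.2% lower. The values of MFG and MSC did not overlap at 4 of the 31, close to the 11.9% of all probes, and these were 2 of LPL and 2 of ACLY. Relative to MSC, LPL was 2.99-fold higher in MFG, by 1.58 on the log2 scale (SE 0.18, limma adjusted p = 6.91e-07) and in 8 of 8 goats. ACLY was 2.87-fold lower in MFG, with a difference of -1.52 (SE 0.15, limma adjusted p = 9.95e-08), and lower in all 7 goats compared. ACLY was called lower with all 25 alternatives tried. LPL was higher with all 25 and called with 23. With median centring LPL differed by 0.22 (adjusted p = 0.426), where all probes had a median of -0.61, and it was thus 0.83 above that median. The call was also lost with all flagged spots kept (1.09, adjusted p = 0.0608). The third LPL probe, A_73_P102541, differed by 0.67 and was not called (limma adjusted p = 0.0742). The unnormalized signals of the brightest LPL probe were alike, with medians of 11323 units in MSC and 11235 in MFG.

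ACSS2 was 1.51-fold higher in MFG, by 0.59 (SE 0.22, limma adjusted p = 0.0376), and higher in 6 of 8 goats. That call was lost without PWI goat 1, 3 or 4 or without PFI goat 2 or 3, with adjusted p from 0.0505 to 0.153. It held with 10 of 25 alternatives, and the sign turned with median centring (-0.70, adjusted p = 0.0212, where all probes had a median of -0.61). The second ACSS2 probe differed by 0.24 and was not called (limma adjusted p = 0.497). SCD was called at 6 of 7 probes, all higher in MFG, from 0.91 to 1.39. Its brightest probe, with 5 MFG values, differed by 0.70 and was not called (SE 0.27, limma adjusted p = 0.0553), and its value was 0.25 without PFI goat 2 and 1.16 without PFI goat 1. The complete probe A_73_106141 differed by 1.02 (SE 0.24, limma adjusted p = 0.00162), higher in 7 of 8 goats. FASN was called higher at 2 of 5 probes (0.81 and 0.84) and not at its brightest, which differed by 0.46 (limma adjusted p = 0.175). IDH1 differed by 0.60 (limma adjusted p = 0.0693). Without MFG of PWI goat 2 and the 2 PNCB arrays of low spike-in slope, IDH1 differed by 0.84 (adjusted p = 0.00085), and SCD by 0.81 (adjusted p = 0.0393). In that setting 19 member probes were called, 16 higher and 3 lower.

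VLDLR, ACSL1 and ACACA gave no call between the milk sources at their brightest probes. Their differences were -0.08 (95% interval -0.64 to 0.48), -0.06 (-0.42 to 0.31) and 0.19 (-0.18 to 0.56). A dimmer ACSL1 probe, A_73_P435586, was called lower in MFG by -0.53 (limma adjusted p = 0.0326). With median centring ACSL1 was called lower at its brightest probe (-1.48, or -0.87 relative to all probes), and so was VLDLR (-0.93, or -0.32 relative to all probes). With that scaling 11 member probes were called, 1 higher and 10 lower, in place of 11 higher and 3 lower.

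**Figure D4:**
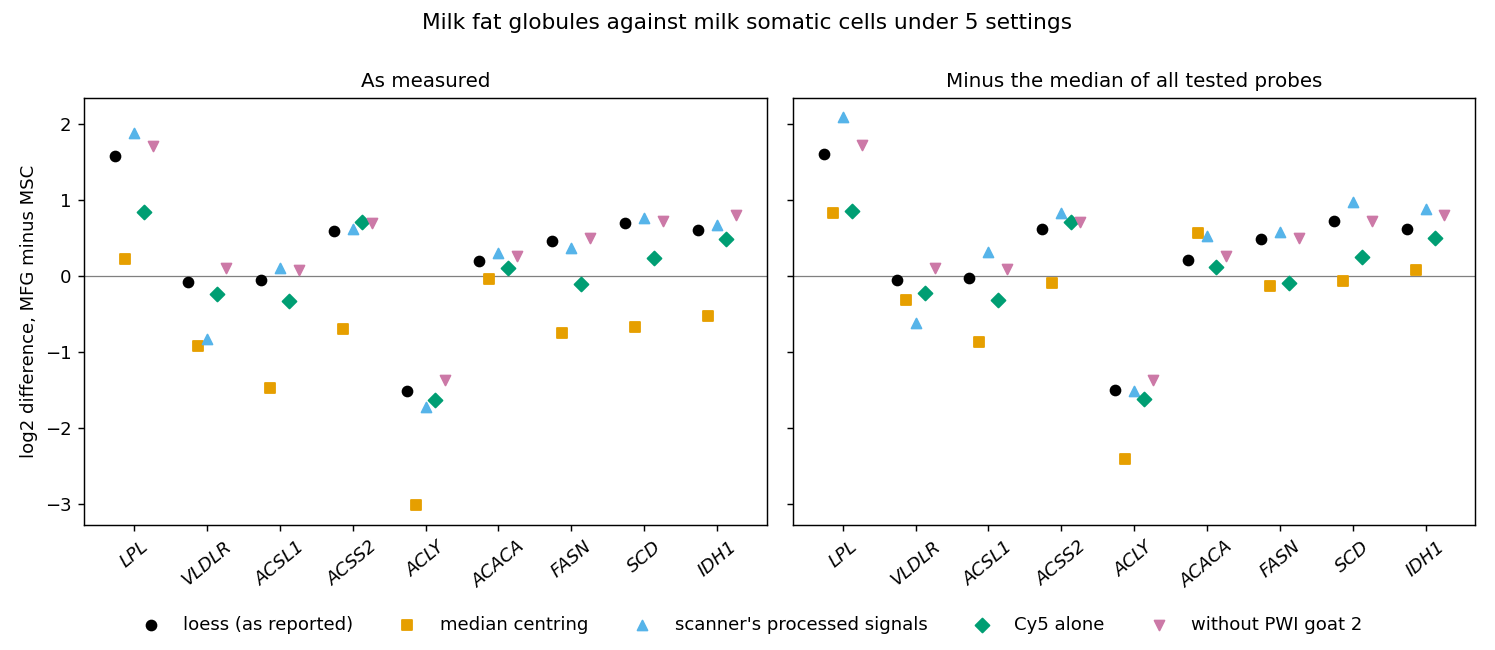
log2 difference of MFG minus MSC for the brightest probe of 9 genes under 5 settings, as measured (left) and after subtracting the median of all tested probes in that setting (right). LPL lies above 0 and ACLY below 0 under all 5, while ACSS2, FASN, SCD and IDH1 lie below 0 with median centring on the left and near 0 on the right.

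From low to high, the order of the sources was PNCB, MSC, MFG for LPL, with the lower step called at all 3 probes, the upper one at 2 of 3 and lost with median centring and with all flagged spots kept, and the reverse for the 2 brighter ACLY probes. For FASN, SCD and IDH1 both milk sources stood above PNCB. At the brightest probe MSC and MFG were not told apart, and 3, 7 and 4 of 25 alternatives called MFG higher. Over all tested probes, MFG was called higher at 6 of 7 for SCD and at 2 of 5 for FASN. For VLDLR, ACSL1 and ACACA the 2 milk sources lay within each other's spread, although ACACA was called higher in MFG with array weights (0.48) and without MFG of PWI goats 2 and 4 (0.52). ACSS2 had the order of LPL as reported, but its upper step was called at 1 of 2 probes and held with only 10 of 25 alternatives.

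The reference channel differed between the sources at some of these probes, although it held the same RNA on every array. In Cy3 normalized alone, 5 of 31 member probes were called between MSC and PNCB arrays, 14 between MFG and PNCB and 10 between MFG and MSC, against 2.23%, 38.1% and 39.5% of all probes. For LPL, Cy3 was higher by 0.52 on MSC than on PNCB arrays and lower by -0.32 on MFG than on MSC arrays. The widest Cy3 difference was 0.78, at LPL probe A_73_P306096 (limma adjusted p = 6.34e-06). A lower Cy3 raises the ratio, but the -0.32 and the 1.58 of LPL between MFG and MSC come from separate normalizations. How much of the 1.58 reflects Cy3 was not tested. From Cy5 alone the LPL difference was 0.84 (adjusted p = 0.00106), that of ACLY -1.64 (adjusted p = 4.80e-05) and that of ACSS2 0.70 (adjusted p = 0.0178). The other 6 genes were not called from Cy5 alone. FASN turned sign to -0.11 (adjusted p = 0.726) and SCD was 0.23 (adjusted p = 0.536). IDH1 was 0.48, ACACA 0.11, VLDLR -0.24 and ACSL1 -0.33 (adjusted p = 0.128 to 0.681).

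MFG of PWI goat 2 was the lowest MFG sample at 7 of the 9 brightest probes and at 19 of 23 member probes measured on all 8 MFG arrays. It was also the lowest at 51.8% of all such probes, so its low values were not limited to these genes. In MSC, PFI goat 2 was the lowest at 9 of 22 complete member probes, against 17.6% of all probes. It was lowest for LPL (4.44), ACSS2 (2.34) and SCD (3.59), and highest for ACLY (-0.61). In PNCB the same goat had the highest SCD ratio, 1.92, where the next had 0.98.

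No member probe passed the test between breeds by limma. Counts of calls were 0 of 31 in MSC, in PNCB, in MFG, over the 3 sources and for the interaction of breed and source, where 0%, 0.0109%, 0.0146%, 0.00366% and 0.0146% of all probes were called. At an unadjusted p under 0.05 there were 1, 4, 0, 1 and 0 member probes. The lowest adjusted p of a member was 0.988 in MSC, 0.972 in PNCB, 0.543 in MFG, 0.624 over the 3 sources and 0.772 for the interaction. Each group of breed and source lay on its own slide, so breed and slide cannot be told apart within a source.

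The 4 PNCB probes under an unadjusted 0.05 belonged to SCD and IDH1. At SCD probe A_73_106141 the PWI goats had 0.61 to 0.80 and the PFI goats 0.87 to 1.92. These breeds did not overlap, which held for 5.05% of all probes in PNCB, and PFI goat 2 lay far above the other goats. The difference was -0.53 (SE 0.22, limma adjusted p = 0.972). IDH1 was higher in PWI by 0.66 in PNCB (SE 0.26, limma adjusted p = 0.972), with overlapping breeds, and differed by -0.02 in MSC and -0.28 in MFG. Over the 3 sources the dimmer ACSS2 probe A_73_P326996 was lower in PWI by -0.54 (SE 0.13, limma adjusted p = 0.624), and its PNCB value of PWI goat 4 was -1.35, on an array of low spike-in slope.

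The intervals limit how large a breed difference could be. In MSC 7 of 9 genes had a 95% interval of less than 2-fold either way, and LPL (-0.18 to 1.04) and SCD (-0.27 to 1.30) reached past it. In PNCB it did for 7 genes, though LPL lay near background there, where ratios are drawn toward 0. In MFG it did for 4 genes, LPL, ACSL1, ACLY and ACACA. The FASN interval in MFG, for example, ran from -0.71 to 1.19. Over the 3 sources, with 1 mean per goat, the 9 genes differed by -0.17 to 0.13 and all 9 intervals stayed within 2-fold. A goat with a flagged value in any source had no mean there. Some of these intervals therefore rest on fewer than 8 goats, and that of SCD on at most 4.

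**Figure D5:**
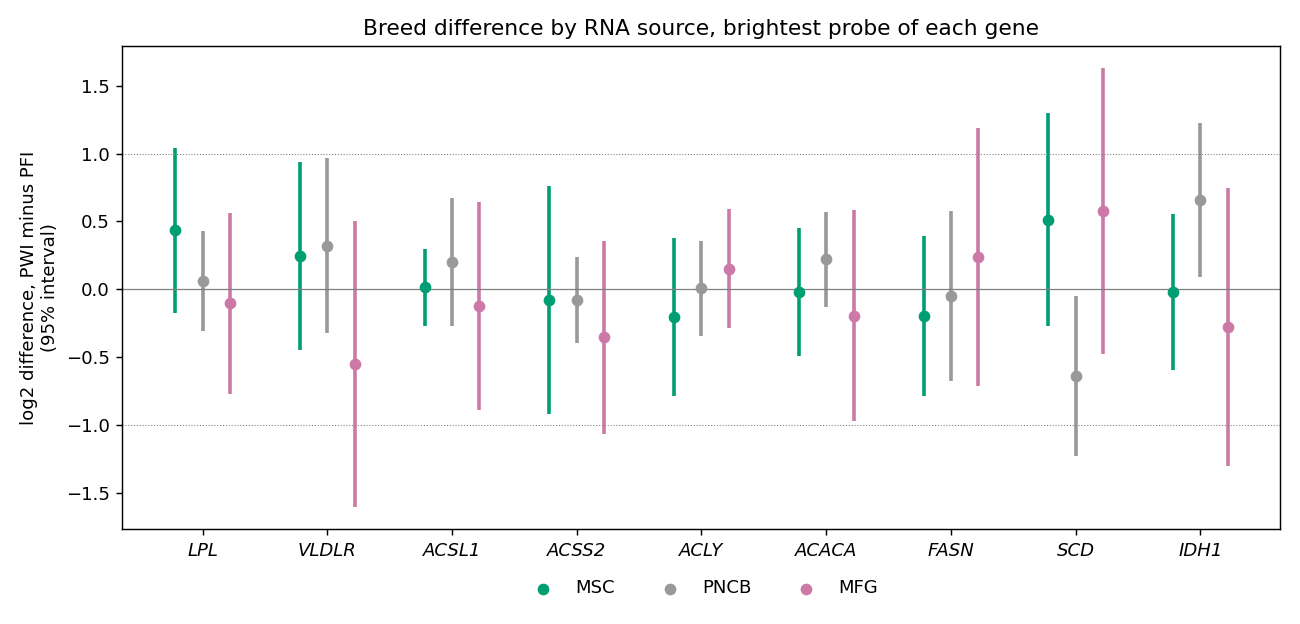
log2 difference of PWI minus PFI for the brightest probe of 9 genes in each RNA source, with 95% intervals from the limma fit of 8 arrays per source. Dotted lines mark a 2-fold difference. No point passed the adjusted threshold; the 2 intervals that leave out 0 are SCD and IDH1 in PNCB, in opposite directions.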

How the data were processed

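RNA of 3 sources from 8 goats was measured on 24 two-colour arrays designed for cattle. Per the file headers, the authors scanned and extracted the spots with Agilent Feature Extraction 10.7.3.1, and the deposited scanner files hold the median spot and local background intensity of both channels, without normalization, and 0 or 1 flags as other values. The deposited table of log10 ratios of Cy5 over Cy3 equals the scanner's own log ratio (largest difference 0), and was an alternative. Per the labels, Cy5 is the sample on every array. Dyes were not swapped, so a dye effect cannot be told apart from a difference between sample and reference. Whether a dye effect was the same on every array was not tested.

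From the intensities, R 4.3.3 and limma 3.58.1 were used. Outlier-flagged spots were left out, the background was corrected by normexp (offset 50), ratios were normalized by loess with controls given no weight, and spots of a probe were averaged. The offset draws ratios of dim probes toward 0. A probe was tested if, in at least 1 of 6 groups, all 4 arrays had Cy5 well above background (27411 of 43653 probes). Sources were compared in 1 fit of 6 group means, breeds within each source on 8 arrays and over 1 mean per goat, with Benjamini-Hochberg adjustment over all tested probes. The procedure was checked on simulated data. No spot was saturated. The number of arrays limits the precision.

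For each gene, values are of the brightest tested probe, by its mean Cy5 over 24 arrays, and other probes are given by range and sign. The members and lists were chosen with earlier results of these data known. The lists of other pathway genes and of cell type markers were fixed by symbol, and they were not run, because the files name probes by accession only and the goat gene table (assembly ARS1.2) holds 0 of these 26748 accessions. The source labels were therefore not checked against cell type markers.

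The goat numbers pair the sources by design, as each goat gave all 3. Deviations from the group means correlated between arrays of the same goat with a median r of 0.02 (-0.27 to 0.32, 24 pairs) and between different goats with 0.00 (72 pairs). Alternatives covered the background correction, scaling, filter, array weights, goat and slide as blocks, and left-out goats. Leaving out the 3 arrays of low spike-in slope, and keeping all flagged spots, were chosen after seeing the data.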

Additional observations from a re-analysis of the deposited data

Results flagged for a closer look

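Over 45 groups of 4 goats (9 genes by 6 groups, where all 4 values were present), 3 held a goat that lay apart from its group, and about 2.25 are expected by chance. ACSS2 in MFG of PWI goat 2 had a log2 ratio of 2.46 against 3.83 to 3.95 in the other PWI goats, on the array with the lowest spike-in slope. ACACA in MSC of PFI goat 4 had 1.17 against 0.61 to 0.68. SCD in PNCB of PFI goat 2 had 1.92 against 0.84 to 0.98, and without it the PFI values lay close to each other.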

How the results depend on the processing

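Against PNCB the member counts stayed within 1.5 times of the values reported, at 25 to 31 (MSC) and 23 to 31 (MFG) over 16 alternatives, and at 27 to 29 for both when 1 goat was left out. For MFG against MSC the count was 14, 11 to 17 without 1 goat, 7 (4 higher, 3 lower) when outlier-flagged spots entered the background correction and were dropped later, 6 with all flagged spots kept, 23 with array weights and 5 within PWI goats alone. With median centring, ACSL1 for MFG against PNCB (-0.71) and ACSS2 for MFG against MSC (-0.70) changed sign; the median of all tested probes then moved to -0.17 (MSC against PNCB), to -0.82 (MFG against PNCB) and to -0.61 (MFG against MSC). With goat as a replicate block the counts were 28, 28 and 14, the same as without it; it was not run between breeds, since each goat has a single breed. For MFG against MSC without 1 goat, FASN was called without PFI goat 1 (0.73), SCD without PFI goat 1 (1.16) or PWI goat 4 (0.78), and IDH1 without PWI goat 2 (0.80). Breed and interaction counts stayed at 0 with every alternative run. In Cy3, 9 member probes in place of 5 were called for MSC against PNCB once the 3 arrays with a low spike-in slope were left out. The cause of these changes was not tested. Signal over background limits LPL in PNCB, ACACA in all sources and SLC27A6 throughout.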

Other observations

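Outside the list, the 2 accessions most like the mean of the 9 brightest member probes over the 24 arrays were NM_001033610 (probe A_73_108833, Pearson r = 0.983) and BC153860 (probe A_73_115391, r = 0.980), among 9162 accessions measured on all arrays. Probe A_73_108833 averaged -0.22 on the log2 scale in PNCB, 4.10 in MSC and 5.01 in MFG, and A_73_115391 had -0.15, 2.51 and 2.78. The arrays share source, slide and reference, and 286 of the 9162 accessions had an r over 0.9, so a high r was not limited to these 2. The files give no symbol for these accessions.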
